A study of Mus musculus with 4 samples.

Results

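The genes described here are 10 markers and effectors of thermogenic brown fat (Ucp1, Cidea, Cox7a1, Cox8b, Fabp3, Ppargc1a, Otop1, Letmd1, Pdk4 and Acadl), measured in RNA of the mouse inferior vena cava. They are 10 of the 18820 genes with a probe set of a single symbol, and all 10 are among the 14115 genes kept after dim genes were left out. Cidea passed that filter only through the 1 array where it is high. The brightest probe set by mean over the arrays stood for each gene. They were picked by their values on the same 4 arrays, so those values are given as a description, with no test, and how often they differ between arrays supports nothing by itself.

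The samples came from wild-type and Cd39-null mice; Entpd1, the gene disrupted in the null, encodes CD39, a membrane enzyme that breaks down extracellular ATP and ADP. Mice of either genotype were 8 to 10 weeks old and had a C57BL/6J background after backcrossing over 8 or more generations. The vein was tied below the kidneys, completely or in part, and sampled 48 h later, or, in the sham operation, exposed and dissected without a tie. Each genotype had a sham and a ligated group, which makes 4 groups, and RNA of 4 mice per group was pooled and run on 1 array. Which pools held males or females, which ties were partial, and whether clot or the fat around the vein was in the piece that gave the RNA are not stated in the labels. Every difference below is therefore between single arrays and has no replicate check. The values are log2 expression after RMA normalisation, and 2-fold is a difference of 1 on that scale.

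Brown adipocytes burn fuel to make heat. Their mitochondria carry an uncoupling protein that lets protons back across the inner membrane without making ATP, and noradrenaline from sympathetic nerves switches this on by way of cyclic AMP, lipolysis and the coactivator PGC-1alpha. Heat production is fed by fatty acid uptake and oxidation, and the respiratory chain of these cells contains tissue-specific subunits that are otherwise found mainly in heart and skeletal muscle. Brown-like adipocytes also surround some large vessels in rodents, and whether a dissected vessel keeps them depends on how much surrounding tissue is taken along. The arrays do not show where in the piece a transcript came from, and in bulk RNA fewer cells of a type and less RNA per cell cannot be told apart.

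Promoters of 9 of the 10 genes were found in a RefSeq table of build GRCm38.p6, which lists the bases before each gene's start. The 250 bases before the start, read 5′ to 3′ on the gene's strand, are shown for Ucp1 and for the 3 other matched genes with the largest difference between the Cd39-null arrays, since these carry most of the pattern below. Capitals mark matches to 1 of the motifs searched. The Ucp1 stretch is chr8:83290098-83290347 on the plus strand, Cox8b is chr7:140900447-140900696 on the minus strand, Cox7a1 is chr7:30183921-30184170 on the plus strand and Fabp3 is chr4:130308488-130308737 on the plus strand.
Ucp1: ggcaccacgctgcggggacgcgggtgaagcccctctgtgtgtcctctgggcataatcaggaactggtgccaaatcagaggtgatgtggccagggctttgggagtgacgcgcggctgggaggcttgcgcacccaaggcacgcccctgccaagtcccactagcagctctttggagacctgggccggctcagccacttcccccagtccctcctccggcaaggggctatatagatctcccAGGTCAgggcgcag
Cox8b: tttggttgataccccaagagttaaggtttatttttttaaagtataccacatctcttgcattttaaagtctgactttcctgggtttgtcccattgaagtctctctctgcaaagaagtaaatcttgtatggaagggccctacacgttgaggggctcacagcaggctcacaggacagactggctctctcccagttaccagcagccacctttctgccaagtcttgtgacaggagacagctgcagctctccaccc
Cox7a1: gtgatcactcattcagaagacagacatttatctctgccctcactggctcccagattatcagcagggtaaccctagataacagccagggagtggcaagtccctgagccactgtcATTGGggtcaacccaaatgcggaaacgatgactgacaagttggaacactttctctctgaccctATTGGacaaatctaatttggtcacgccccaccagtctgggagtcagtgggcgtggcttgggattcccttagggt
Fabp3: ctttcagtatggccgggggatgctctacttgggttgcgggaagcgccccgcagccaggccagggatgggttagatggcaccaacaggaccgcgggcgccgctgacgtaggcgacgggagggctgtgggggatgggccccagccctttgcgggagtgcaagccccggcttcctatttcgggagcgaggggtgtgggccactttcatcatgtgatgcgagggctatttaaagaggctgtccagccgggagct

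The motifs were searched on both strands. AGGTCA, the hexamer read by nuclear receptors such as PPARs and thyroid hormone receptors, is present in 14% of all 32851 promoters and in those of Ucp1, 14 to 9 bases before the start, and Letmd1. CCAAT lies on the minus strand of Cox7a1 137 to 133 and 74 to 70 bases before the start; it is in 33.8% of all promoters and in 3 of the 9 here, those of Cox7a1, Pdk4 and Letmd1. TATAAA (12.4% of all promoters), the cyclic AMP element TGACGTCA (1.55%), the ERR element TNAAGGTCA, which contains the hexamer (1.14%), and the hexamer repeated after 1 base (0.0335%) matched in 0 of the 9. Their G and C content ran from 47.2% in Cox8b to 77.6% in Letmd1, against a median of 52.4% for all promoters. These are letters in a short window and say nothing of binding.

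The arrays had median log2 values of 2.97 to 3.04 over 35556 probe sets. As a stand-in for background, the 95th percentile of 1006 olfactory receptor probe sets ran from 2.66 to 2.97. Entpd1 was 7.11 in wild type after sham surgery and 6.17 after ligation, 4.16 in the sham-operated null and 6.14 on the array labelled as the ligated null. It was thus 7.73-fold lower in sham veins of the null but differed by -0.03 log2 in ligated ones. This goes against the genotype label of the last array, and directions that use it rest on that label.

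Ucp1, the uncoupling protein that lets protons leak for heat, had a log2 value of 4.14 in wild type after sham surgery and 2.03 after ligation, 9.71 in the sham-operated null and 2.26 on the array labelled as the ligated null. The Cd39-null sham array was far above the others, and both ligated arrays lay under the olfactory background. Between the sham arrays Ucp1 was 47.6-fold higher in the null, the fifth highest genotype difference of the 14115 genes. Between the Cd39-null arrays the ligation difference was -7.45 log2, the lowest of all genes, or at least 131-fold lower when the dim value is raised to background. In wild type it was at least 2.78-fold lower by the same bound. Cidea, a lipid droplet protein typical of brown adipocytes, was 2.12, 1.94, 4.88 and 1.60 in the same order of arrays. It stood above background only in Cd39-null sham, where it was at least 3.84-fold higher than in wild type sham and at least 4.61-fold higher than on the array labelled Cd39-null ligated.

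Cox8b, the muscle and brown fat form of subunit 8 of cytochrome c oxidase, the last complex of the respiratory chain, was 6.45 in wild type after sham surgery and 3.43 after ligation, 10.06 in the sham-operated null and 3.22 on the array labelled as the ligated null. It was 8.11-fold lower after ligation in wild type and 114-fold lower after ligation in the null, and 12.2-fold higher in the null after sham surgery. In wild type its ligation difference was the eighth lowest of all genes. Cox7a1, the heart and muscle form of subunit 7a, was 4.96, 4.11, 8.82 and 3.83 in the same order. Its sham value was 14.5-fold higher in the null, and its ligation difference was 1.81-fold lower in wild type and 31.9-fold lower in the null. Letmd1, a mitochondrial protein of brown fat needed for thermogenesis, was 4.30, 4.54, 5.88 and 4.20. Only the Cd39-null sham array stood apart, 3-fold above wild type sham; in wild type Letmd1 was 1.19-fold higher after ligation.

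Fabp3, a carrier of fatty acids in the cytoplasm of oxidative cells, was 3.01 in wild type after sham surgery and 3.00 after ligation, 7.13 in the sham-operated null and 2.79 on the array labelled as the ligated null. The 3 low arrays lay within 0.22 log2 of each other, and the null sham array was 17.4-fold above wild type sham. In wild type its ligation difference was -0.01 log2 and ran from -0.07 to 0.04 under other scalings, so no direction is given. A second probe set of the gene gave 2.85, 2.96, 7.32 and 2.53. The same RefSeq table lists a Fabp3 pseudogene, so how the signal divides between near-identical copies is uncertain. Acadl, which starts the oxidation of long-chain fatty acids in mitochondria, was 6.06, 6.27, 8.17 and 5.73, 4.32-fold higher in the null after sham surgery and 5.44-fold lower in the null after ligation. Pdk4, a kinase that shuts glucose carbon out of mitochondria and so favours fat as fuel, was 6.08, 4.42, 7.57 and 4.55. Its ligation difference was 3.15-fold lower in wild type and 8.12-fold lower in the null.

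Ppargc1a, which encodes the coactivator PGC-1alpha that drives mitochondrial and thermogenic genes, was 4.08 in wild type after sham surgery and 2.84 after ligation, 5.77 in the sham-operated null and 2.70 on the array labelled as the ligated null. It was lower after ligation in both genotypes, 2.35-fold in wild type and 8.41-fold in the null. A second, dimmer probe set gave 1.85, 1.90, 2.39 and 1.79, differing by 0.05 log2 in wild type, so the probe sets disagree there. Otop1, a proton channel found in brown fat, had the narrowest spread, at 3.26, 3.04, 4.53 and 3.14. It was 2.41-fold higher in the null after sham surgery and 2.62-fold lower in the null after ligation.

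**Figure D1:**
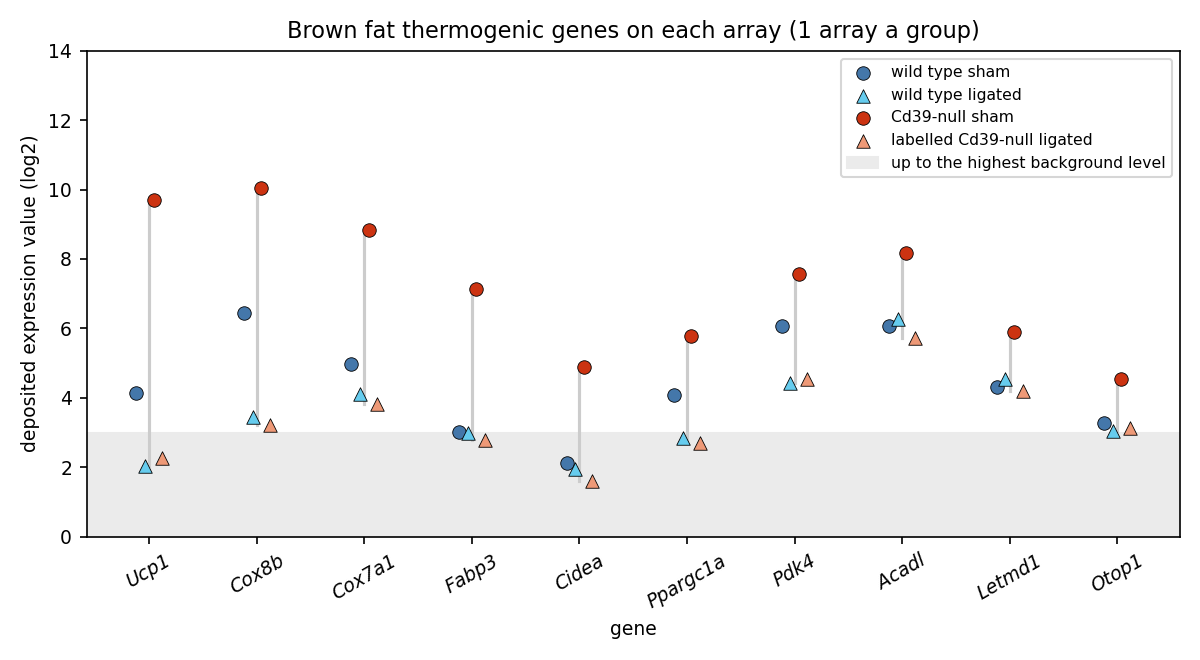
Log2 expression of the 10 brown fat genes on each of the 4 arrays (1 array per group, RNA of 4 mice pooled, no error bars). Circles are sham and triangles ligated arrays, grey lines span the range of a gene, and the grey band ends at the highest olfactory background level. The Cd39-null sham array is the highest for each of the 10 genes.

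The order of the arrays was alike across the 10 genes. Cd39-null sham was highest for all 10, and each was at least 2-fold above the second highest array, a pattern that 185 of the 14115 genes show (1.31%). Wild type sham came second for 8 and wild type ligated for 2, Letmd1 and Acadl. The array labelled Cd39-null ligated was lowest for 7 and wild type ligated for 3, Ucp1, Otop1 and Pdk4. At or under background lay 2 of the 10 on each ligated array, Ucp1 and Cidea, 1 in wild type sham, Cidea, and 0 in Cd39-null sham. As the genes were chosen for values on these arrays, these counts are read as a description of the choice.

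The wild-type arrays asked how the tied vein differs from the sham-operated one. At least 2-fold lower were 4 of the 10, Ucp1, Cox8b, Ppargc1a and Pdk4, and 0 were higher, with a median of -0.54 log2 against -0.01 for all genes. Of all genes 3.63% were at least 2-fold lower and 6.6% at least 2-fold higher. With any size of difference, 6 were lower, the same 4 with Cox7a1 and Otop1, and 2, Letmd1 and Acadl, were higher. Fabp3 has no direction there, and Cidea lay under background on both arrays. With a median of -0.01 log2, lower and higher genes were near equal in number among all genes. The signs of the members are therefore given as a description only. Cox8b alone was past 4-fold when dim values were raised to background. Between the Cd39-null arrays all 10 were at least 2-fold lower, with a median of -3.17 log2 against 0.03, where 5.8% of all genes were that much lower and 10.9% higher. The members that were 2-fold lower in both genotypes are the 4 just named; 1.45% of all genes were.

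The sham arrays asked how the genotypes differ before any ligation. All 10 genes were at least 2-fold higher in the null, from 2.41-fold for Otop1 to 47.6-fold for Ucp1, with a median of 2.44 log2 against -0.07 for all genes. Of all genes 2.95% were at least 2-fold higher and 3.54% lower. In that comparison 45.5% of the genes past 2-fold were higher, and 58.4% after cyclic loess. Between the Cd39-null arrays 65.3% of such genes were higher after ligation as deposited, 51.5% after quantile normalisation and 53.9% after cyclic loess. The sham genotype difference and the Cd39-null ligation difference share the Cd39-null sham array, and both counts of 10 use the value of that array. Between the ligated arrays 0 of the 10 were 2-fold apart, with a median of -0.21 log2 against -0.03; of all genes 3.61% were higher and 2.66% lower.

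Set against wild type sham in place of Cd39-null sham, the array labelled Cd39-null ligated was at least 2-fold lower for 5 of the 10 genes. Of all genes 6.58% were. The arrays compared here differ in genotype label as well as surgery, so genotype and ligation cannot be told apart in it. The differences were -1.13 log2 for Cox7a1, -3.23 for Cox8b, -1.38 for Ppargc1a and -1.53 for Pdk4. For Ucp1, under background on the ligated array, the difference was -1.46 with that value raised to background, a bound on its size. Fabp3, Otop1, Letmd1 and Acadl lay between -0.09 and -0.33, and Cidea was under background on both arrays. Without the Cd39-null sham array the differences are thus smaller and cover fewer genes.

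**Figure D2:**
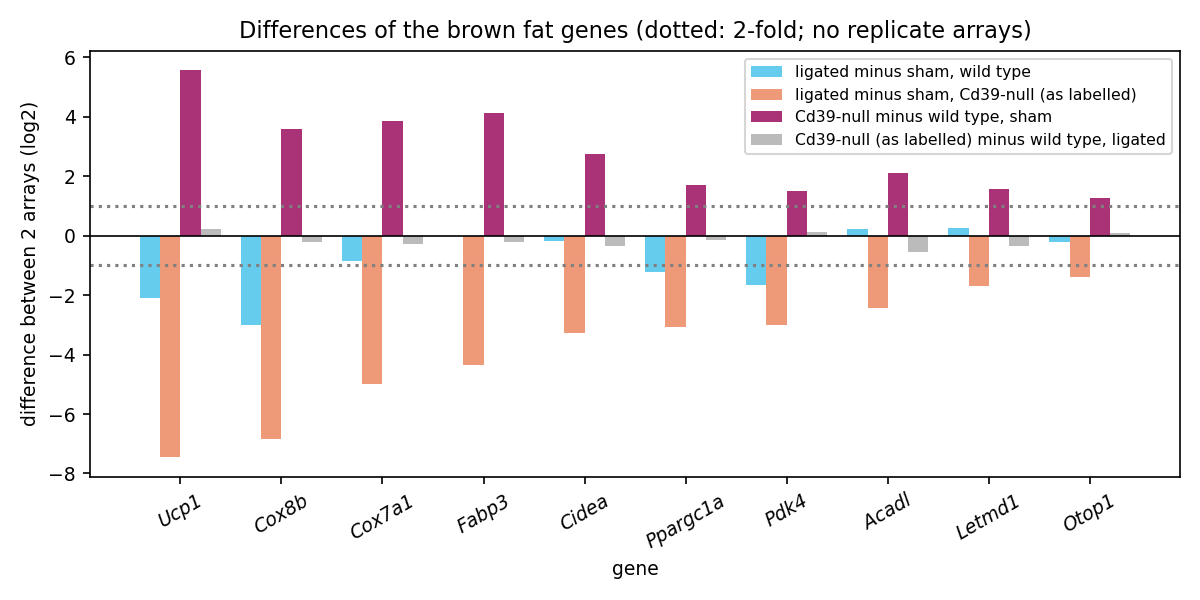
Log2 differences of the 10 genes between pairs of arrays: ligated minus sham in each genotype and Cd39-null minus wild type in each surgery, with dotted lines at 2-fold and no replicate arrays. All 10 genes are past 2-fold in both differences that use the Cd39-null sham array, 4 are past it after ligation in wild type, and 0 are past it between the ligated arrays. Bars of Ucp1 and Cidea that use values under background are drawn as measured.

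Relatives of these genes, mostly forms used in other tissues, were set beside them. Of 15 relatives in the table, 3 were at least 2-fold lower after ligation in the null, Pdk2, Acadm and Fabp4, and 2 were at least 2-fold higher in the null after sham surgery, Pdk2 and Acadm. Of all genes 5.8% and 2.95% were. Cox7a2 and Cox8a, the forms of the same subunits that most tissues use, differed by -0.67 and -0.26 log2 after ligation in the null, where Cox7a1 and Cox8b differed by -5.00 and -6.84. Ucp3, the muscle uncoupling protein, differed by -0.75, from 3.58 to 2.83. Acadm, the medium-chain enzyme next to Acadl in the same pathway, was 5.88 in wild type after sham surgery and 5.67 after ligation, 7.60 in the sham-operated null and 5.33 on the array labelled as the ligated null. Fabp4, the fat cell fatty acid carrier, was 8.80, 8.28, 9.40 and 8.32 and so differed by -1.08 log2 after ligation in the null. Cidec, the fat droplet relative of Cidea, was 6.57, 7.72, 7.36 and 6.83 and was highest in wild type ligated.

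**Figure D3:**
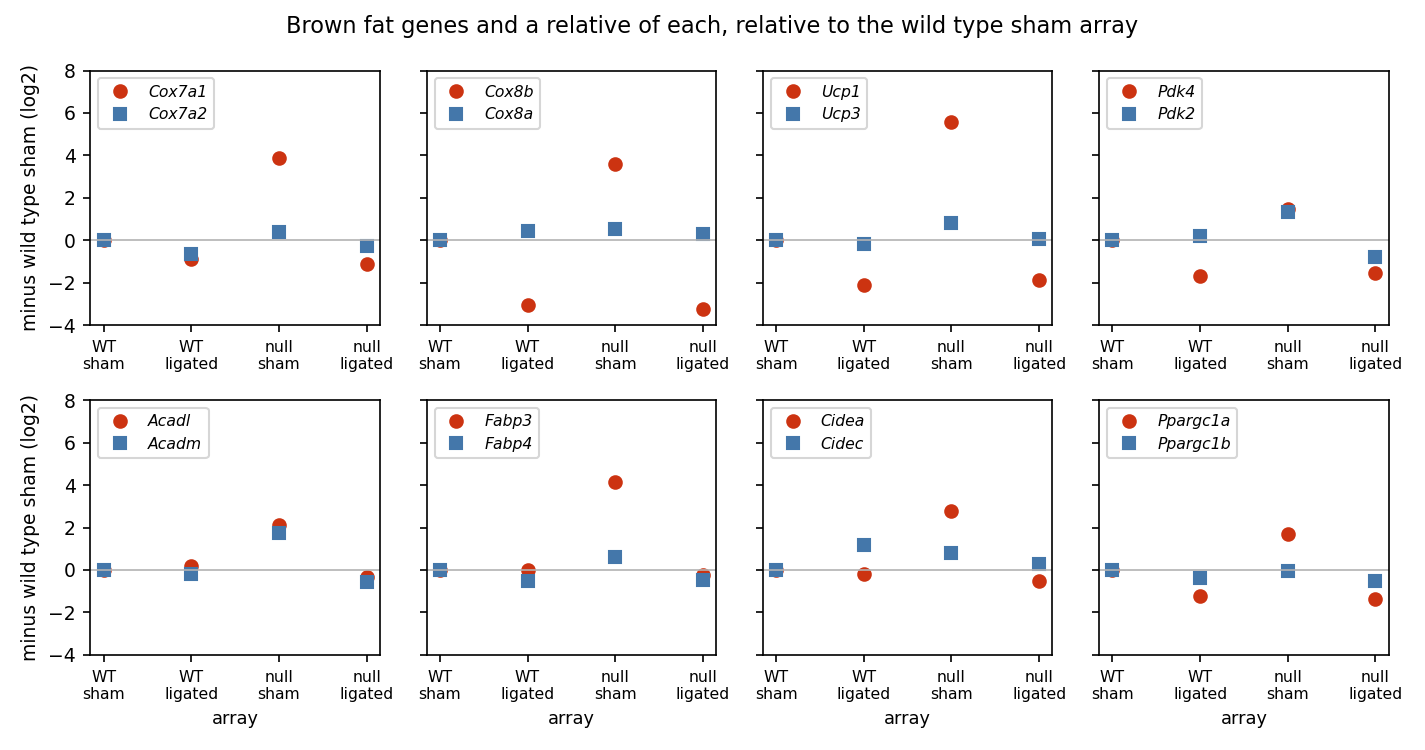
Log2 value minus that of wild type sham (vertical axis) on each array, for a brown fat gene (red circles) and a relative of it (blue squares) in each panel. Cox7a1 and Cox8b stand high on the Cd39-null sham array, while Cox7a2 and Cox8a lie 0.40 and 0.55 log2 above wild type sham there.

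Other genes of brown fat were followed in lists that do not contain the members. The lists were chosen with earlier results of these data known, so counts in them are a description. The number of list genes past 2-fold is given for the Cd39-null ligation difference, beside 5.8% of all genes that were lower and 10.9% that were higher. Of 22 measured brown fat enriched genes, 16 were kept after dim genes were left out. Of these 16, 5 were at least 2-fold lower and 0 higher, with a median of -0.74 log2. Slc27a2, a fatty acid transporter, was 2.91, 1.52, 5.59 and 2.14, and Pank1, which makes the start of coenzyme A, was 3.19, 2.57, 5.25 and 2.31, both highest in Cd39-null sham. Slc27a2 passed the filter on dim genes only through that array. S100b, a calcium-binding protein, was 6.20, 4.97, 6.15 and 3.31 and did not share that peak. Most of the list did not share it to that size. Between the sham arrays 3 of the 16 were at least 2-fold higher in the null and 0 lower. The median there was 0.32 log2, and of all genes 2.95% were that much higher and 3.54% lower. The additive limma fit of ligation over both genotypes placed 0 of all genes under an adjusted p of 0.05 (0%; the smallest was 0.0952) and 7.79% of all genes lower and 13.2% higher after ligation under an unadjusted one. In the list it placed 0 under the adjusted threshold (limma's smallest adjusted p was 0.121, and 0.0934 to 0.25 over other settings), 5 lower and 1 higher under the unadjusted one.

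Of 17 transcription factors and coactivators of brown fat, 3 were at least 2-fold lower after ligation in the null with dim values raised to background, and 4 as deposited, with a median of -0.14 log2. Pparg, the receptor of fat cell identity, differed by -2.45 there and by 1.86 between the sham arrays, and Ebf2, a brown fat factor, by -1.17. Ppara, a receptor of fat oxidation, was under background on the ligated array, and its difference was -1.62 with that value raised to background. Irf4, the gene lost with the raised values, was under background there too. Zfp516, a brown fat factor, was 1.08 log2 higher as deposited, but after quantile normalisation or cyclic loess 0 were at least 2-fold higher and 6 lower. Among 10 thermogenesis repressors 1 was higher as deposited and 0 after either of these scalings, and 0 were lower. Of 8 measured genes of adrenergic and thyroid input, Pde3b, which breaks down cyclic AMP, differed by -1.86. Thrb, a thyroid hormone receptor under background on the ligated array, was past 2-fold as deposited but not with that value raised to background; the list's count of lower genes was 2 as deposited and 1 with raised values, after cyclic loess and after median centring.

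Genes of fatty acid oxidation were also higher on the Cd39-null sham array. Of 17 genes, 12 were at least 2-fold lower after ligation in the null and 8 at least 2-fold higher in the null after sham surgery; the medians were -1.36 and 0.93 log2, and 0.25 after ligation in wild type. Hadhb, of the trifunctional protein, differed by -2.29 and Decr1, which removes double bonds, by -2.47 after ligation in the null, while in wild type they differed by -0.03 and 0.25. Of 11 genes of fatty acid synthesis 8 were lower after ligation in the null, among them Fasn (-2.87), Elovl6 (-2.66) and Thrsp (-4.29). Against wild type sham the number at least 2-fold lower was 1 of the oxidation genes and 4 of the synthesis genes. Of all genes 6.58% were that much lower against wild type sham, and 2.95% were that much higher in the null after sham surgery. In limma's fit 2 oxidation genes were lower and 2 higher at an unadjusted p under 0.05, against 7 lower and 0 higher in synthesis, and 0 had an adjusted p under 0.05 in either list (smallest adjusted p 0.161 and 0.111; 0.132 to 0.274 and 0.084 to 0.233 over other settings).

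Of 12 other subunits of cytochrome c oxidase, 1 was at least 2-fold lower after ligation in the null, Cox6a1 at -1.01, and the median was -0.50. That count was 2 after quantile normalisation, 3 after cyclic loess and 0 after median centring. In wild type Cox4i1 was 1.26 log2 higher after ligation. Adipocyte genes in general differed in the direction of the 10 where the Cd39-null sham array was used, but not after ligation in wild type, where 3 were at least 2-fold higher and 0 lower with a median of 0.20. Of 22 white and general adipocyte genes, 12 were at least 2-fold lower after ligation in the null and 9 at least 2-fold higher in the null after sham surgery. Of all genes 5.8% and 2.95% were. Lep, the fat cell hormone leptin, differed by -2.45, Adipoq, adiponectin, by -1.91 and Adig by -2.22 after ligation in the null. Against wild type sham 2 of the 22 were at least 2-fold lower. Of 7 beige adipocyte genes 0 were 2-fold apart in the ligation and genotype differences. Against wild type sham 2 of the 7, Kcnk3 and Klhl13, were at least 2-fold lower on the array labelled Cd39-null ligated, as were 6.58% of all genes.

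**Figure D4:**
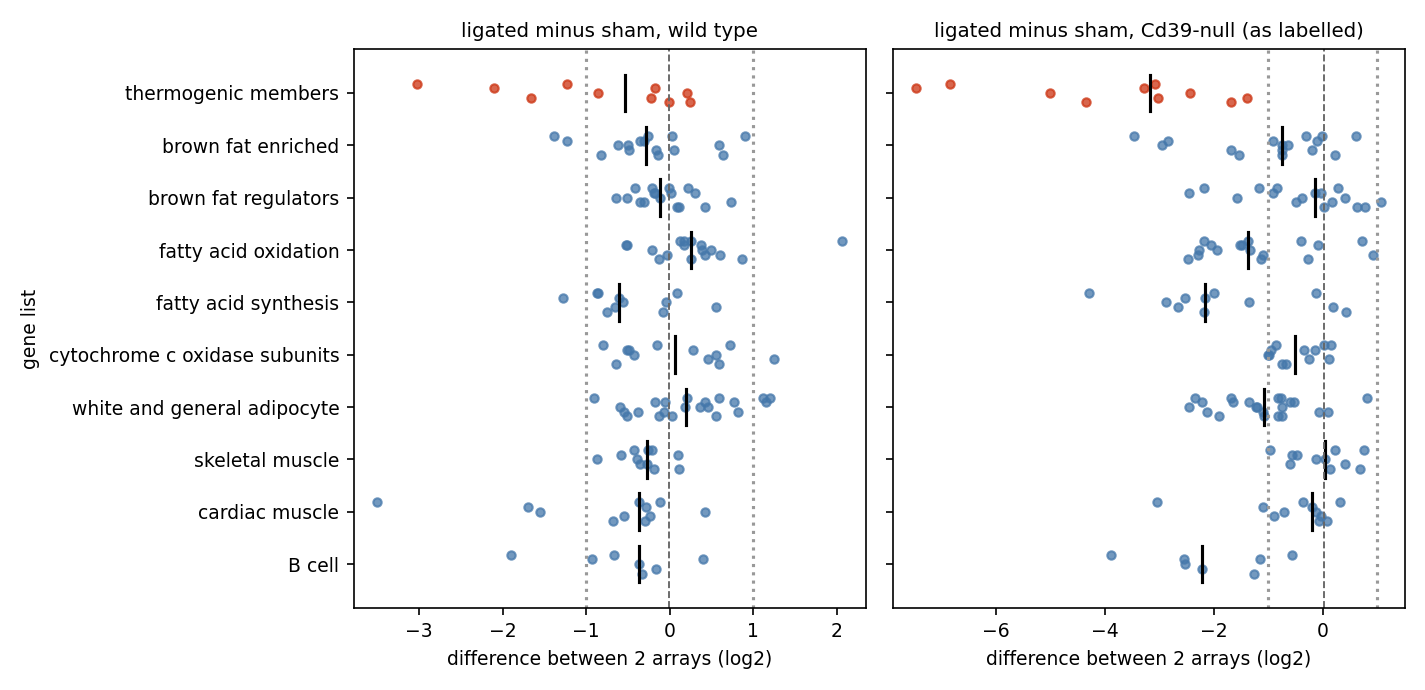
Ligated minus sham log2 difference in wild type (left) and in the null as labelled (right), on different scales, with a point per gene, a black bar at each list's median and dotted lines at 2-fold. Fatty acid oxidation, fatty acid synthesis, general adipocyte and B cell lists share the direction of the 10 brown fat genes between the Cd39-null arrays. The B cell median there is -2.22 log2. Of 11 skeletal muscle genes 0 pass the dotted lines.

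Genes of other cells differed between the same arrays. Of all genes 3.63% were at least 2-fold lower after ligation in wild type, and 5.8% were lower and 10.9% higher in the null. Between the sham arrays 2.95% of all genes were at least 2-fold higher in the null and 3.54% lower. Between the ligated arrays 3.61% were higher and 2.66% lower. Of 10 endothelial genes, 6 were at least 2-fold lower after ligation in wild type (median -1.24 log2), 4 were lower in the null after sham surgery (median -0.98) and 0 were 2-fold apart between the Cd39-null arrays; their part in the result was not tested. Of 7 measured B cell genes, 6 were at least 2-fold higher in the null after sham surgery and 6 at least 2-fold lower after ligation in the null (5 in either count with dim values raised to background, and 5 in the second after cyclic loess), and their median level was 3.13 in wild type after sham surgery and 2.46 after ligation, 4.59 in the sham-operated null and 2.69 on the array labelled as the ligated null. Ms4a1, which encodes CD20, was 4.24, 2.33, 6.23 and 2.34. The summed linear signal of the B cell list was 79.7, 53.1, 276.5 and 56.8. Their part in the result was not tested. Platelet genes were high on the array labelled Cd39-null ligated, with all 8 at least 2-fold above Cd39-null sham and a median level of 8.31 there against 3.43 to 4.62 elsewhere; their part was not tested either. Smooth muscle genes were lower in the null, 7 of 8 at least 2-fold between the sham arrays and 6 of 8 between the ligated ones, and their part was not tested.

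Since Cox7a1, Cox8b and Fabp3 are also muscle genes, muscle markers were followed. Of 11 skeletal muscle genes 0 were 2-fold apart in any comparison, the highest level on any array was 3.82, and 5, 5, 6 and 5 of them lay at or under background. Of 11 cardiac muscle genes 0 were at least 2-fold higher and 1 was lower in the null after sham surgery, 3 were lower after ligation in wild type, Actc1, Pln and Tnnt2, and 2 in the null, Actc1 and Pln. Of all genes 3.54% were that much lower in the null after sham surgery, 3.63% after ligation in wild type and 5.8% in the null. Actc1, cardiac actin, was 8.64, 5.14, 6.76 and 3.73 and so was highest in wild type sham, unlike the 10 brown fat genes.

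The genes outside the 10 whose profile over the 4 arrays lay nearest to their median profile, by Euclidean distance of centred log2 values, were Mme (0.313), Bank1 (0.355), Glycam1 (0.399), Pank1 (0.409), Elovl6 (0.472), Tmem45b (0.517), Arxes2 (0.535), Adtrp (0.56), Fcer2a (0.619) and Cd22 (0.63). For comparison, Cidea lay 0.368 and Ucp1 3.63 from that profile. Nearest to Ucp1 were the immunoglobulin genes Igkv10-96 (1.44), another kappa variable segment (1.49), Jchain (1.57), Igkc (2.01) and Igkv8-30 (2.02). Igkv10-96 was 2.38, 1.80, 9.22 and 2.42. With 4 arrays many genes share such a profile, and the likeness is a description.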

How the data were processed

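RNA of the inferior vena cava was pooled from 4 mice in each of 4 groups and run on 1 whole-transcript array per group, per the labels and the series' design text. Each value deposited is log2 expression of 1 probe set; the authors used RMA and oligo, per the submitters' processing notes. For tool versions and the genome build, the sources used here give nothing. The method brings the distributions of the arrays closer to each other, so a global shift in RNA content could be hidden. The deposited values were not fully equalised. The olfactory background level was 2.94 and 2.97 on the sham arrays and 2.66 and 2.68 on the ligated ones. Between the Cd39-null arrays 1537 genes were at least 2-fold higher after ligation and 818 lower as deposited. After quantile normalisation the counts were 1118 and 1052. Of 35556 probe sets 21218 carried 1 symbol in the platform's annotation, 1881 several and 12457 none. For 1386 genes with several, the brightest by mean was taken, and genes with a mean at or above the 25th percentile (2.29) were kept. A gene could pass through 1 high array alone. Cidea, Slc27a2, Irf4 and Igkv10-96 are among those that passed only through Cd39-null sham. For arrays no read depth applies, and their number limits the precision.

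Differences between arrays carry no test. The additive model of genotype and ligation was fitted with limma 3.58.1 in R 4.3.3 (1 residual degree of freedom, prior 3.67; unlike responses of the genotypes count as error), adjusted by Benjamini-Hochberg over all genes kept and tested on simulated data; it was used for genes outside the members. Gene lists numbered 18, the 10 members among them. The members and lists were chosen with earlier results of these data known. Named besides the members were up to 6 genes per list with the largest mean ligation difference, relatives of the members, Entpd1, and the 10 genes nearest in profile to the members' median and 5 nearest to Ucp1. Alternatives were other scalings, filters, folds, a background floor, means over probe sets and another reference array. Analyses used Python 3.11.15 with pandas 2.3.3 and numpy 2.4.6.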

Additional observations from a re-analysis of the deposited data

Results flagged for a closer look

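Ligation differences of opposite direction in the genotypes were seen for some genes and lists, each from 1 pair of arrays per genotype, and the differences between genotypes were not tested. Letmd1 had a ligation difference of 0.25 log2 in wild type and -1.68 in the null, a difference of -1.92 between the ligation differences. Acadl had 0.21 and -2.44, a difference of -2.65. Both genes were picked by their values on these arrays, and both were highest on the Cd39-null sham array, which the null difference uses. The other array of that difference is the one whose Entpd1 level goes against its genotype label. The medians of the fatty acid oxidation and of the white and general adipocyte lists were higher in wild type and lower in the null, with differences of -1.61 and -1.28 log2. The platelet list went the other way, with a median of -1.17 in wild type and 3.97 in the null, a difference of 5.14.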

How the results depend on the processing

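Of 59 alternative values of the counts that answer a comparison, 52 were within 1.5 times the value given, and 7 were not. At a fold of 4 the count of the 10 genes at least that much lower after ligation in wild type was 2 as deposited. It was 1 with dim values raised to background (without Ucp1). The count higher in the null after sham surgery was 6 as deposited and 5 with raised values (without Cidea). The share of all genes past 4-fold was not taken, so these counts only show how the threshold changes them. With wild type sham as the reference, 5 of the 10 genes were lower on the array labelled Cd39-null ligated; for the lists, an alternative chosen after seeing the data, the counts were 1 for fatty acid oxidation, 4 for fatty acid synthesis, 2 for white and general adipocyte and 3 for brown fat enriched genes. The cause was not tested. The median sham difference of the 10 genes was 2.03 log2 with values floored at background. None of the alternatives run reversed a direction of a count or median of the 10 genes. Leaving out an array removes a group, so it was not run. No paired analysis was possible because each group had 1 array. Signal over background limits genes that lie under it on an array. Among them are Ucp1 and Pank1 on the ligated arrays, and Cidea, Ppara, Irf4, Thrb and Slc27a2 on all but the Cd39-null sham array. Folds against those values are bounds.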

Other observations

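Transcripts of sympathetic nerves, which drive brown fat, were lower after ligation in both genotypes. Of 8 genes, 6 were at least 2-fold lower in wild type and 4 in the null, with medians of -1.38 and -1.33 log2; of all genes 3.63% and 5.8% were that much lower. Dbh, which makes noradrenaline, was 6.85 in wild type after sham surgery and 5.00 after ligation, 5.58 in the sham-operated null and 3.32 on the array labelled as the ligated null. Th, the first enzyme of the same pathway, was 5.08, 3.57, 5.12 and 2.85, and Npy, a peptide released with noradrenaline, was 8.45, 7.25, 8.52 and 6.56. Unlike the 10 brown fat genes, Th and Npy were at like levels on both sham arrays, and Dbh was higher in wild type. The list was chosen with earlier results of these data known, and the fit has 1 residual degree of freedom. Its counts beside those of all genes are thus a description and no test of the list. In limma's fit 7 of the 8 were lower at an unadjusted p under 0.05, against 7.79% of all genes, and 0 at an adjusted one (smallest adjusted p 0.0952; 0.0754 to 0.213 over other settings).

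Heat can also be made without Ucp1, by cycles of creatine and calcium. Of 9 measured genes of these cycles, 8 were kept after dim genes were left out. After ligation in the null 1 of the 8 was at least 2-fold higher and 0 were lower, against 10.9% and 5.8% of all genes. The higher gene was Alpl, a phosphatase of the creatine cycle, at 1.13 log2, and 0 were higher after quantile normalisation. Ckb, a creatine kinase of that cycle, was 7.13, 7.88, 6.05 and 6.30 and so was lower on both Cd39-null arrays.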
